A study of Mus musculus with 6 samples.

Results

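Chromatin remodelling complexes were followed through the mRNAs of 42 genes, a list of subunits of the SWI/SNF (BAF), NuRD, CHD, ISWI and INO80 families, chosen by symbol from the 24083 genes of the expression table. All 42 were in the table. Polyadenylated RNA came from mouse embryonic stem cells in 2 groups of 3 libraries, one labelled wild type (WT) and the other R153A, named for an arginine-to-alanine form of the homeodomain factor NANOG. Both groups were kept in serum medium with LIF on gelatin, with no treatment beyond normal culture. How the R153A form was introduced, whether a group came from 1 clone, and whether its libraries came from separate cultures is not given by the labels, so p-values measure the spread between these libraries, which may be technical. Expression is given as FPKM, a fragment count scaled by gene length and by library size, so levels can be compared between genes.

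Remodelling complexes use the energy of ATP to slide, evict or exchange nucleosomes. Canonical BAF (cBAF), polybromo BAF (PBAF) and non-canonical BAF (ncBAF) share an ATPase and part of a core, and differ in their other subunits. Not every core subunit listed here belongs to ncBAF. Embryonic stem cells are known for a BAF form built on BRG1 (Smarca4) and BAF155 (Smarcc1). NuRD joins a CHD ATPase to histone deacetylases and is known to restrain pluripotency genes so that stem cells can leave self-renewal. CHD1 and the ISWI ATPases space or open nucleosomes at active genes, and the work of INO80 and EP400 is linked to the histone variant H2A.Z.

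The libraries resembled each other within a group. Pearson correlations of log2(FPKM + 1) across the genes tested ran from 0.995 to 0.996 for libraries of the same group and from 0.947 to 0.9501 for libraries of different groups. These are correlations across genes, which are not independent replicates. Nanog mRNA, which is not the altered residue itself and so does not check the labels, fell from 253 ± 10.02 to 123 ± 5.16 FPKM (SD, n = 3 per group, as for every ± below). Wdr5, which encodes a subunit of histone methyltransferase complexes, fell from 65.3 ± 1.63 to 41.96 ± 0.982 FPKM. All 9 pluripotency markers examined reached 1 FPKM in every library. Their summed levels were 4256 to 5019 FPKM in WT and 2284 to 2387 FPKM in R153A. Much of each sum was Dppa5a, at 2575 ± 364 FPKM in WT and 936 ± 20.5 FPKM in R153A. Of the 9, 8 were called lower, where 22.3% of all genes tested fell. Tdgf1, at 432 ± 17.6 FPKM in WT and 429 ± 14.4 FPKM in R153A, was not called. Of 10 fibroblast or feeder markers, 5 reached 1 FPKM in at least 1 library, and the list summed to 8.14 to 9.35 FPKM in WT and 12.8 to 13.6 in R153A, with Lum under 0.1 FPKM throughout. Of the 5 fibroblast markers tested, 4 were called higher. Of 9 primitive endoderm markers, 4 reached 1 FPKM in at least 1 library, with Sox17 and Cubn under 0.1 FPKM in every library. The list summed to 5.95 to 7.08 FPKM in WT and 8.07 to 8.91 in R153A. These sums combine opposite changes, since Foxa2 rose from 0.176 ± 0.0811 to 3.40 ± 0.341 FPKM and Sox7 fell from 2.18 ± 0.473 to 0.278 ± 0.0915 FPKM. Dab2, not tested, was at 0.0130 ± 0.0025 FPKM in WT and 0.7104 ± 0.101 FPKM in R153A. Of 8 neural markers 2 reached 1 FPKM in at least 1 library (4.81 to 5.61 and 3.11 to 3.47 FPKM, with Neurog2 under 0.1 FPKM in every library). The part of these markers in the results that follow was not tested. In bulk RNA, fewer cells of a type and less RNA per cell cannot be told apart.

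The remodelling genes were called about as often as genes in general. Genes that reached 1 FPKM in 3 or more of the 6 libraries entered limma's test on log2(FPKM + 1), which kept 40 of the 42 members and 11817 genes in all. Smarca2 and Smarcd3 stayed under that filter. Of the 40, 23 (57.5%) passed a limma adjusted p of 0.05, against 59.8% of all genes tested. There were 18 higher in R153A (45%, against 37.5% of all genes) and 5 lower (12.5%, against 22.3%). The WT and R153A values did not overlap in 25 of the 40 (62.5%, against 65% of all genes). Changes of at least 1.5-fold on the log2(FPKM + 1) scale passed for 6 members (15%, against 20.2% of all genes). The median log2 fold change, R153A minus WT, was 0.096 over the members and 0.071 over all genes tested. The balance of directions varied with scaling, among the members and among all genes tested. The members were 18 higher and 5 lower with FPKM as deposited (78.3% of the calls higher, against 62.7% over all genes). They were 17 and 7 with libraries scaled to the same sum, or TPM (70.8%, against 58.9%). Quantile normalization gave 18 and 7 (72%, against 47.4%), and median-ratio scaling 15 and 10 (60%, against 50.7%). A correction for GC content and transcript length gave 14 and 12 (53.8%, against 48.2%). Each of the 5 falls, and 13 of the 18 rises, passed the threshold in every alternative that tested them.

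**Figure D1:**
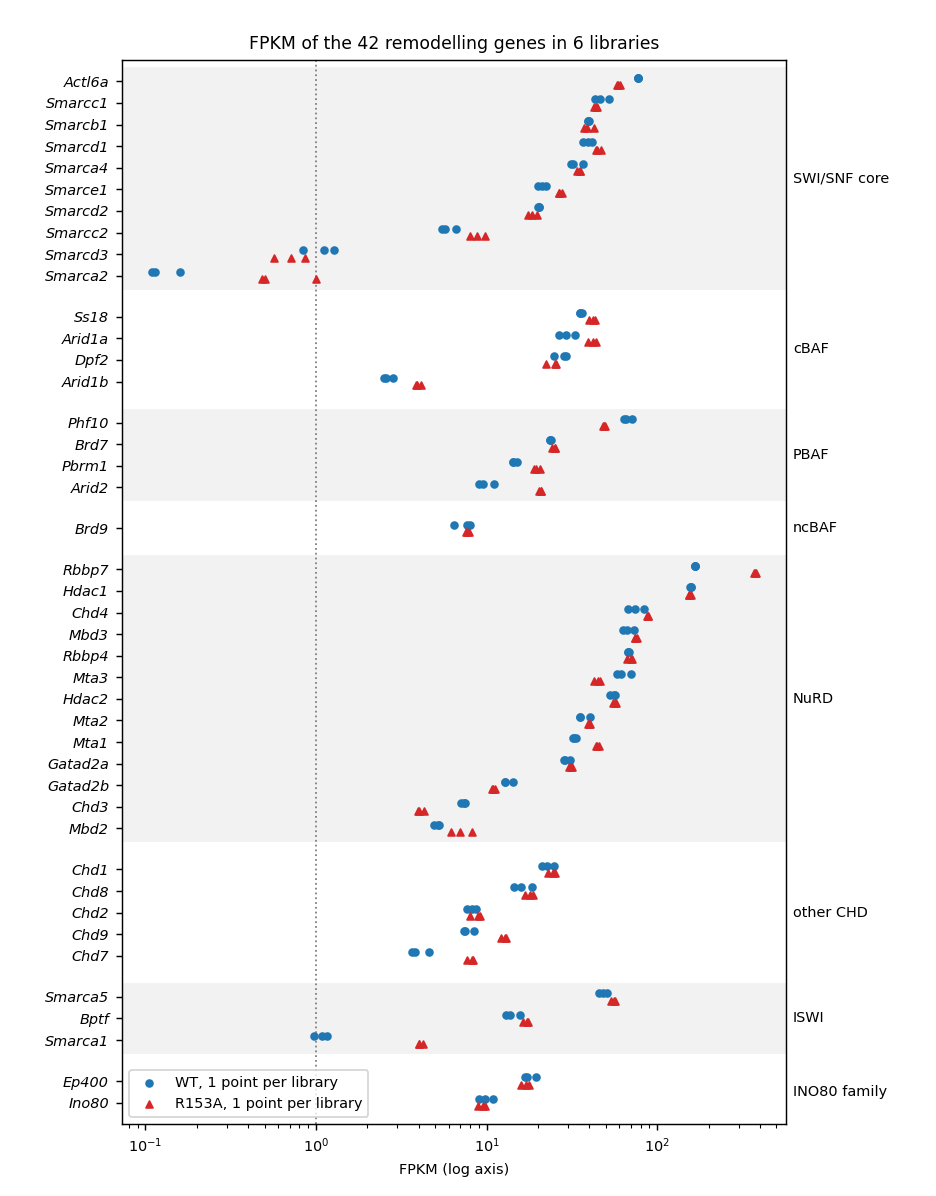
FPKM (log axis) of the 42 remodelling genes, grouped by complex and ordered by the WT mean, with 1 point per library (WT circles, R153A triangles) and a dotted line at 1 FPKM. Rbbp7, Arid2, Chd7, Chd9, Smarca1 and Chd3 have clearly separate groups, while Hdac1, Smarcb1, Brd9 and Ino80 overlap.

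**Figure D2:**
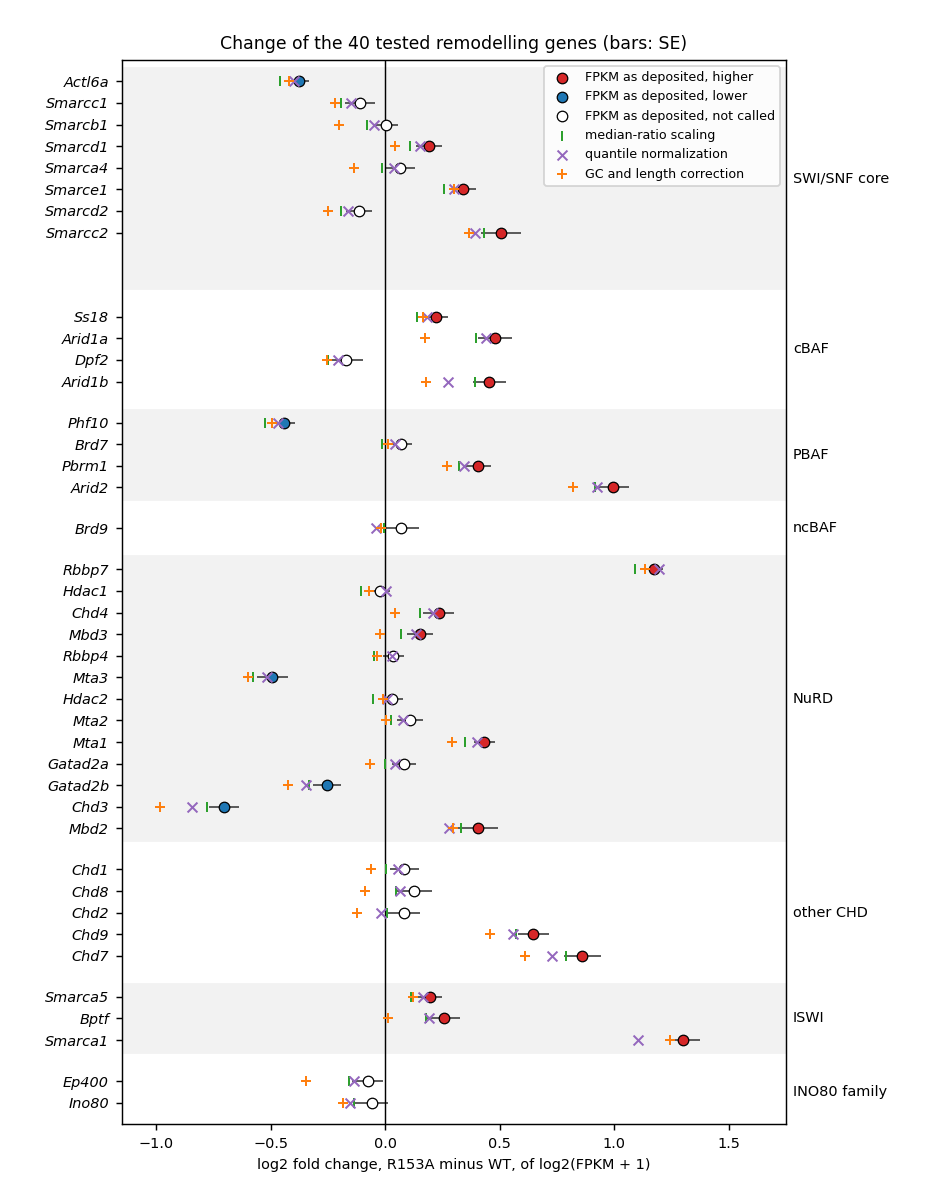
Log2 fold change (R153A minus WT) of the 40 tested genes, with the SE as bars, filled where limma called the gene. The green, purple and orange marks give the same value under 3 other scalings, and the orange marks, after the GC and length correction, lie to the left of the circles for all 40 genes.

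The promoter windows of 4 members are shown. Of the members tested, Smarca1 and Rbbp7 gave the largest rises on the log2 scale. Phf10 and Actl6a gave the largest falls among tested members with a window. Each window runs from 250 bases before to 50 bases after the gene's start in RefSeq on build GRCm38.p6, 5′ to 3′ on the gene's strand. The deposited values were made on mm9, so these coordinates serve only to place the sequences. They are chrX:162760122-162760421 on the plus strand for Rbbp7, chrX:47892564-47892863 on the minus strand for Smarca1, chr17:14961211-14961510 on the minus strand for Phf10 and chr3:32708296-32708595 on the plus strand for Actl6a. Capitals mark TAAT, the core of homeodomain sites, CCAAT, the NF-Y box, CCGGAA, an ETS core, and CACGTG, an E-box, each on either strand, with overlaps allowed.
Rbbp7: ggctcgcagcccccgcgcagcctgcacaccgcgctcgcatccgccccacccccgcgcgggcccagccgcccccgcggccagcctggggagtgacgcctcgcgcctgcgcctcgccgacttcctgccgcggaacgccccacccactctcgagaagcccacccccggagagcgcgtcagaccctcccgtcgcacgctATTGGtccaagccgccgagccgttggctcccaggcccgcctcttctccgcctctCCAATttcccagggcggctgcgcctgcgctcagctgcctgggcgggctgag
Smarca1: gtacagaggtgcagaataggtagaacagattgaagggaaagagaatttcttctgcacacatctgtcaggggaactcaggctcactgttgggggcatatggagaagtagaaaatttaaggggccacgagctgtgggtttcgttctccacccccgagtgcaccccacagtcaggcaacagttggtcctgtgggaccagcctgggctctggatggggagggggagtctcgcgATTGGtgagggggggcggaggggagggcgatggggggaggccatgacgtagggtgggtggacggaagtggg
Phf10: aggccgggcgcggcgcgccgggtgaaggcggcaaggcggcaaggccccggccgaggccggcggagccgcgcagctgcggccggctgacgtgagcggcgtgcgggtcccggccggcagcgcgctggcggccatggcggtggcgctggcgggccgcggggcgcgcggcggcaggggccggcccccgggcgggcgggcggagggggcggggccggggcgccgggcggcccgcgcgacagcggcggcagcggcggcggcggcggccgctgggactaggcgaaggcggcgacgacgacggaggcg
Actl6a: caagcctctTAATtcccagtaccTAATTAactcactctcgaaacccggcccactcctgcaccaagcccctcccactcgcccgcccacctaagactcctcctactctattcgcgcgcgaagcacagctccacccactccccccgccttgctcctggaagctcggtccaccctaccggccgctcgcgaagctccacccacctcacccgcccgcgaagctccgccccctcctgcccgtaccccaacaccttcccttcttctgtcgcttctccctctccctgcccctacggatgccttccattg

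Rbbp7 held 2 CCAAT boxes and 38 CpG dinucleotides, Smarca1 held 1 CCAAT box and 9 CpG, Phf10 held none of the 4 motifs and 62 CpG, and Actl6a held 3 TAAT matches and 21 CpG. RefSeq gave a window for 32 of the 42 members. Arid2, Chd1, Chd2, Chd3, Chd7, Hdac1, Mbd2, Mta3, Smarce1 and Ss18 had no entry. The members' windows had a median of 32 CpG per window (range 4 to 62), against 7 over the windows of 27025 genes. Those windows, which also served as the comparison for the motifs, were not limited to the genes tested. TAAT stood in 8 of the 32 windows (25%), against 58.3% of all windows. CCGGAA stood in 8 (25%, against 15.2%), CCAAT in 10 (31.2%, against 37.9%) and CACGTG in 3 (9.38%, against 7.24%). A match to these letters is a description of the window and not a binding site.

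The main SWI/SNF ATPase of stem cells was not called, and its direction depended on the setting. Smarca4, which encodes BRG1, gave 32.0, 36.5 and 31.4 FPKM in the WT libraries, against 35.4, 33.9 and 35.2 in the R153A libraries, with overlapping groups. On the log2 scale this was 0.067, with an SE of 0.0611 (limma adjusted p = 0.37), and -0.14 after the GC and length correction (limma adjusted p = 0.0126), and it was called higher without WT replicate 2 (0.13). The alternative ATPase Smarca2, which encodes BRM and prevails in differentiated cells, was nearly silent. It gave 0.114, 0.109 and 0.160 FPKM in the WT libraries, against 0.996, 0.4999 and 0.479 in the R153A libraries, where each library was above the WT libraries but none reached the 1 FPKM of the filter, so it was not tested.

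Among the core subunits that surround the ATPase, changes ran in both directions. Of 8 members of the ATPase and core group that passed the filter, 3 were called higher and 1 lower. Of all genes tested, 37.5% rose and 22.3% fell. After the GC and length correction 2 of the 8 rose and 5 fell, where 3650 of the 11817 genes rose and 3919 fell. Smarcc2 (BAF170), the paralog of the scaffold BAF155, rose from 5.48, 5.73 and 6.65 FPKM to 9.78, 8.03 and 8.83 FPKM. That is 1.49-fold, or 0.51 on the log2 scale with an SE of 0.0866 (limma adjusted p = 4.2e-04). Smarcc1, the stem-cell form, gave 46.2, 52.0 and 42.9 FPKM in the WT libraries, against 42.4, 43.7 and 44.1 in the R153A libraries, overlapping and not called (limma adjusted p = 0.174), though called lower in 3 alternatives. Smarce1 (BAF57), an HMG-box subunit, rose 1.28-fold, from 21.1 ± 1.19 to 26.9 ± 0.7 FPKM. Actl6a (BAF53A), the actin-related subunit of proliferating cells, made the only fall. It gave 76.97, 77.05 and 76.95 FPKM in the WT libraries, against 58.6, 57.7 and 60.8 in the R153A libraries, or -0.38 on the log2 scale with an SE of 0.0441 (limma adjusted p = 2.4e-05). Its WT libraries were almost equal and all above the R153A libraries.

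Of the SMARCD subunits, which link the core to transcription factors, Smarcd1 alone was called with FPKM as deposited. Smarcd1 (BAF60A) rose from 39.2 ± 2.31 to 44.9 ± 1.54 FPKM (log2 fold change 0.19, limma adjusted p = 0.0113), a call lost after the GC and length correction (limma adjusted p = 0.355) and without R153A replicate 3. Smarcd2 had 20.2 ± 0.186 FPKM in WT, against 18.6 ± 1.17 FPKM in R153A (limma adjusted p = 0.109). Its groups did not overlap, and it was called lower in 4 alternatives, by up to -0.25 on the log2 scale after the GC and length correction. Smarcd3, the form of heart and muscle, gave 1.28, 1.11 and 0.837 FPKM in the WT libraries, against 0.566, 0.709 and 0.866 in the R153A libraries and was not tested. Smarcb1 (SNF5), a core subunit known as a tumour suppressor, stood at 39.5 ± 0.144 and 39.6 ± 2.60 FPKM. Its log2 fold change of 0.0015 became -0.20 after the GC and length correction (limma adjusted p = 0.00458).

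The largest change among the listed BAF members tested was in Arid2, one of the ARID and bromodomain subunits that define cBAF and PBAF. Also named BAF200, it is the ARID subunit of PBAF, and its 9.50, 11.0 and 9.05 FPKM in WT became 20.8, 20.1 and 20.7 FPKM in R153A, 2.09-fold. On the log2 scale this was 0.99, with an SE of 0.0703 (limma adjusted p = 4.3e-07). Pbrm1 (BAF180), which carries the bromodomains of PBAF, rose 1.345-fold, from 14.6 ± 0.466 to 19.6 ± 0.888 FPKM. In contrast Phf10 (BAF45A), the PHD-finger subunit of PBAF, fell from 65.2, 64.0 and 70.7 FPKM to 49.0, 47.8 and 49.4 FPKM, or -0.44 on the log2 scale with an SE of 0.0508 (limma adjusted p = 2.0e-05). The fourth PBAF member, Brd7, a bromodomain protein, stood at 23.6 ± 0.165 and 24.8 ± 0.490 FPKM and was not called, though its groups did not overlap. PBAF subunits therefore moved in both directions.

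In cBAF, both ARID1 paralogs rose. Arid1a (BAF250A), the main ARID subunit of stem cells, rose from 29.0, 33.1 and 26.7 FPKM to 43.5, 39.1 and 42.1 FPKM, or 0.48 on the log2 scale with an SE of 0.0752 (limma adjusted p = 2.3e-04), and by 0.17 after the GC and length correction. Arid1b rose from 2.58, 2.82 and 2.50 FPKM to 3.92, 3.87 and 4.14 FPKM, a log2 fold change of 0.45. Ss18, shared by cBAF and ncBAF, rose from 35.6 ± 0.432 to 41.7 ± 1.97 FPKM. Dpf2 (BAF45D), the cBAF counterpart of Phf10, stood at 27.6 ± 2.345 and 24.4 ± 1.72 FPKM. It was not called (limma adjusted p = 0.0628) except in 5 alternatives, in which it was lower. The ncBAF bromodomain subunit Brd9 stood at 7.33 ± 0.819 and 7.71 ± 0.142 FPKM, with overlapping groups.

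In NuRD the histone deacetylases were not called, while paralogs of the ATPase, MTA, GATAD2 and RBBP groups changed by unequal amounts. Of its 13 members 5 rose, 3 fell and 5 did not pass, where 37.5% of all genes rose and 22.3% fell. The counts were 3 and 4 under median-ratio scaling, where 3764 of the 11817 genes rose and 3655 fell. They were 3 and 3 after the GC and length correction, where 3650 genes rose and 3919 fell. Without the filter they were also 3 and 3, where 5518 of 20504 genes rose and 2747 fell. Rbbp7 (RBAP46), a WD-repeat histone chaperone that NuRD shares with Polycomb repressive complex 2, had the smallest adjusted p of the list. Its 165.7, 167 and 166 FPKM in WT became 371, 376 and 379 FPKM in R153A, 2.26-fold, or 1.17 on the log2 scale with an SE of 0.0422 (limma adjusted p = 2.7e-09). Its paralog Rbbp4 (RBAP48) gave 67.2, 68.3 and 67.4 FPKM in the WT libraries, against 66.7, 70.2 and 71.2 in the R153A libraries, overlapping and not called.

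Chd4 (Mi-2beta), the principal NuRD ATPase of stem cells, gave 74.3, 83.5 and 67.3 FPKM in the WT libraries, against 88.7, 86.6 and 88.8 in the R153A libraries. On the log2 scale this was 0.23, with an SE of 0.0687 (limma adjusted p = 0.0127), 0.15 under median-ratio scaling and 0.041 after the GC and length correction, neither of them called. Chd3 (Mi-2alpha) fell, from 7.05, 7.44 and 7.41 FPKM to 4.03, 4.28 and 3.96 FPKM, 1.78-fold lower. This was the largest fall of the list, or -0.70 on the log2 scale with an SE of 0.066 (limma adjusted p = 3.9e-06). The deacetylases did not pass the test. Hdac1 stood at 157 ± 0.694 and 155 ± 2.80 FPKM and Hdac2 at 55.0 ± 1.80 and 56.2 ± 1.42 FPKM, with overlapping groups for each. Hdac1 was called lower under median-ratio scaling, by a log2 fold change of -0.11.

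The MTA scaffold proteins, which bind the deacetylases and set alternative NuRD forms, moved apart. Mta1 rose from 33.6, 32.6 and 32.0 FPKM to 43.7, 45.4 and 44.5 FPKM, or 0.43 on the log2 scale with an SE of 0.0466 (limma adjusted p = 1.3e-05). Mta3 fell from 61.1, 58.3 and 70.3 FPKM to 42.4, 46.1 and 45.0 FPKM, or -0.49 on the log2 scale with an SE of 0.0685 (limma adjusted p = 9.2e-05). Mta2 stood at 36.9 ± 2.75 and 39.8 ± 0.433 FPKM and was not called, except without WT replicate 2, where it was higher. Mta3 was thus the most abundant MTA mRNA in WT, whereas in R153A Mta1 and Mta3 lay at 44.5 ± 0.840 and 44.5 ± 1.935 FPKM.

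The MBD and GATAD2 subunits complete the complex. Mbd2, the subunit that binds methylated CpG, rose from 5.12 ± 0.193 to 7.13 ± 1.03 FPKM. Mbd3, which replaces it in the main stem-cell NuRD, gave 63.4, 73.1 and 66.5 FPKM in the WT libraries, against 74.4, 74.5 and 76.5 in the R153A libraries. Its call (log2 fold change 0.15, limma adjusted p = 0.0376) was lost in 10 of 17 alternatives, and the value was -0.022 after the GC and length correction. Gatad2b (p66beta), a zinc-finger bridge to CHD4, fell from 13.3 ± 0.831 to 10.96 ± 0.233 FPKM, and its paralog Gatad2a stood at 29.4 ± 1.27 and 31.2 ± 0.699 FPKM and was not called.

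Of the 5 listed CHD ATPases outside NuRD, 2 rose and none fell, a share of rises near the 37.5% of all genes, and Chd1l, one of the further genes listed later, fell. Chd7, which binds enhancers and is mutated in CHARGE syndrome, rose from 3.81, 4.57 and 3.65 FPKM to 8.31, 7.65 and 8.26 FPKM, 2.01-fold. On the log2 scale this was 0.86, with an SE of 0.0814 (limma adjusted p = 4.3e-06). Chd9, of the same subfamily, rose from 7.46, 8.44 and 7.33 FPKM to 12.9, 12.2 and 12.97 FPKM, or 0.65 on the log2 scale with an SE of 0.0672 (limma adjusted p = 9.1e-06). Their relative Chd8 stood at 16.3 ± 1.95 and 17.8 ± 0.865 FPKM, with overlapping groups, and passed only without WT replicate 2. Chd1, which is needed for the open chromatin of stem cells, gave 22.5, 24.7 and 21.2 FPKM in the WT libraries, against 24.4, 23.0 and 25.2 in the R153A libraries (log2 fold change 0.084, SE 0.0647, limma adjusted p = 0.285). Chd2 stood at 8.15 ± 0.482 and 8.68 ± 0.647 FPKM.

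The ISWI group rose in all 3 members, where 37.5% of all genes tested rose. Its minor ATPase had the largest log2 fold change of the members tested. Smarca1 (SNF2L), known from neural tissue, gave 0.972, 1.16 and 1.09 FPKM in the WT libraries, against 4.22, 4.03 and 4.04 in the R153A libraries, 3.82-fold. On the log2(FPKM + 1) scale, which understates changes at this level, it rose by 1.30 (SE 0.07505, limma adjusted p = 8.4e-08). Smarca5 (SNF2H), the main ISWI ATPase of stem cells, gave 48.1, 50.8 and 45.5 FPKM in the WT libraries, against 56.5, 53.5 and 55.5 in the R153A libraries. On the log2 scale this was 0.20, with an SE of 0.0527 (limma adjusted p = 0.00787), a call lost under median-ratio scaling (limma adjusted p = 0.0586). GENCODE lists pseudogene copies of Smarca5 and of Smarce1, and reads shared with these copies would make both levels uncertain. Bptf, the large subunit that directs the NURF complex to methylated H3K4, rose from 14.1 ± 1.40 to 16.99 ± 0.663 FPKM. Its log2 fold change of 0.26 (limma adjusted p = 0.00943) became 0.014 after the GC and length correction and was not called there.

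Rbbp7 and Smarca1 were the 2 X-linked members, and X-linked genes as a group were called lower more often than autosomal genes, with a like share called higher. Over 470 X-linked genes tested the median log2 fold change was -0.0095, with 37.2% called higher and 33.4% called lower. Over 11287 autosomal genes the median was 0.073, with 37.5% called higher and 21.8% called lower. Xist, the RNA that silences an X chromosome, rose from 1.97 ± 0.118 to 5.42 ± 0.478 FPKM. The Y-linked Ddx3y and Eif2s3y were at or under 0.0511 FPKM in every library.

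The INO80-family ATPases were not called. Ino80 gave 9.77, 10.8 and 9.01 FPKM in the WT libraries, against 9.58, 8.90 and 9.74 in the R153A libraries (log2 fold change -0.060, SE 0.0734, limma adjusted p = 0.504). Ep400 gave 17.2, 19.3 and 16.8 FPKM in the WT libraries, against 17.7, 15.8 and 16.9 in the R153A libraries (log2 fold change -0.076, SE 0.0672, limma adjusted p = 0.35). The groups overlapped for both genes. After the GC and length correction both were called lower, Ino80 at -0.19 and Ep400 at -0.34. The 17 members that were not called had log2 fold changes between -0.17 and 0.13.

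**Figure D3:**
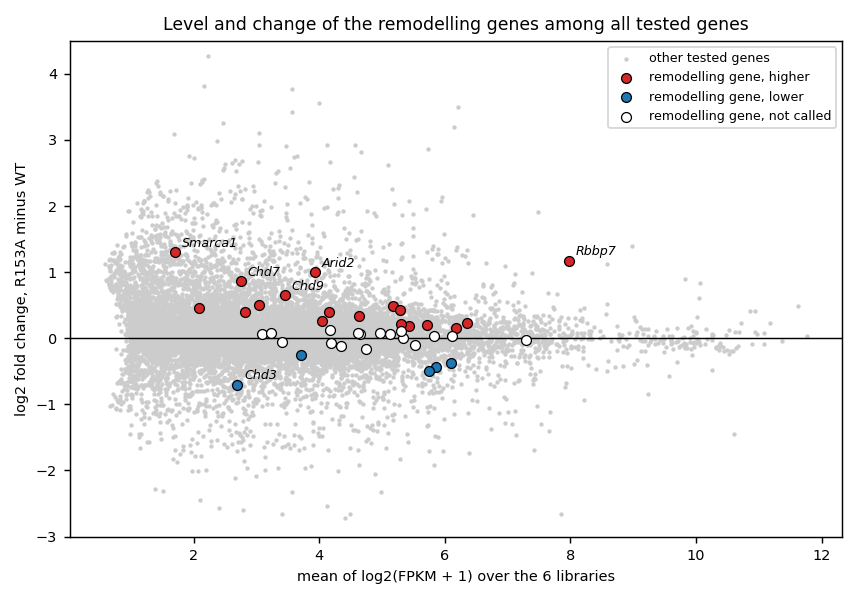
Mean level (log2(FPKM + 1) over the 6 libraries) against the log2 fold change (R153A minus WT) for the remodelling genes (large points, filled where called) among all genes tested (grey). The 17 remodelling genes not called lie between -0.17 and 0.13, and Rbbp7, the most abundant of the list, lies at 1.17.

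Ratios between related subunits, most of them paralogs of the same complex, were compared within libraries, since a factor applied to a whole library cancels in such a ratio. There were 15 pairs. In 10 of them the 3 R153A ratios lay wholly above (5) or below (5) the 3 WT ratios, where 65% of single genes tested had groups that did not overlap. The exact two-sided permutation p was 0.1 for each of these 10, the smallest that 3 against 3 libraries can give, and 0.15 after Benjamini-Hochberg adjustment over the 15 pairs, so no pair could pass a threshold of 0.05.

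Relative to the main ATPase, the minor one was higher in R153A in SWI/SNF and ISWI and lower in NuRD. Smarca1 per Smarca5 was 0.0202, 0.0228 and 0.0239 in WT and 0.0747, 0.0753 and 0.0727 in R153A. Chd3 per Chd4 was 0.0949, 0.0891 and 0.1101 in WT and 0.0455, 0.0494 and 0.0446 in R153A, a difference of -1.07 on the log2 scale. Smarca2 per Smarca4 was 0.00389 ± 0.00109 in WT and 0.0188 ± 0.00806 in R153A, a ratio that rests on Smarca2 values under 1 FPKM. For each of these pairs the groups were well separated and the main ATPase remained far more abundant.

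Among scaffolds and chaperones, Rbbp7 per Rbbp4 was 2.47, 2.44 and 2.46 in WT and 5.56, 5.36 and 5.33 in R153A. Mta3 per Mta2 was 1.72 ± 0.265 in WT and 1.12 ± 0.0449 in R153A, and Mta1 per Mta2 was 0.890 ± 0.0708 and 1.12 ± 0.0223. Smarcc2 per Smarcc1 was 0.119, 0.1102 and 0.155 in WT and 0.231, 0.184 and 0.200 in R153A. Gatad2b per Gatad2a was 0.453 ± 0.0402 and 0.352 ± 0.0065, Smarcd2 per Smarcd1 0.515 ± 0.0265 and 0.414 ± 0.018, and Smarcd3 per Smarcd1 0.0276 ± 0.0068 and 0.0159 ± 0.00291. The other 5 pairs overlapped. Arid1b per Arid1a was 0.0893 ± 0.00435 and 0.0959 ± 0.0051 (exact permutation p = 0.2), and Hdac2 per Hdac1 was 0.350 ± 0.01 and 0.363 ± 0.00482 (exact permutation p = 0.2). Mbd2 per Mbd3, Brd9 per Brd7 and Chd2 per Chd1 gave differences of 0.32, 0.0054 and 0.0029 on the log2 scale.

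**Figure D4:**
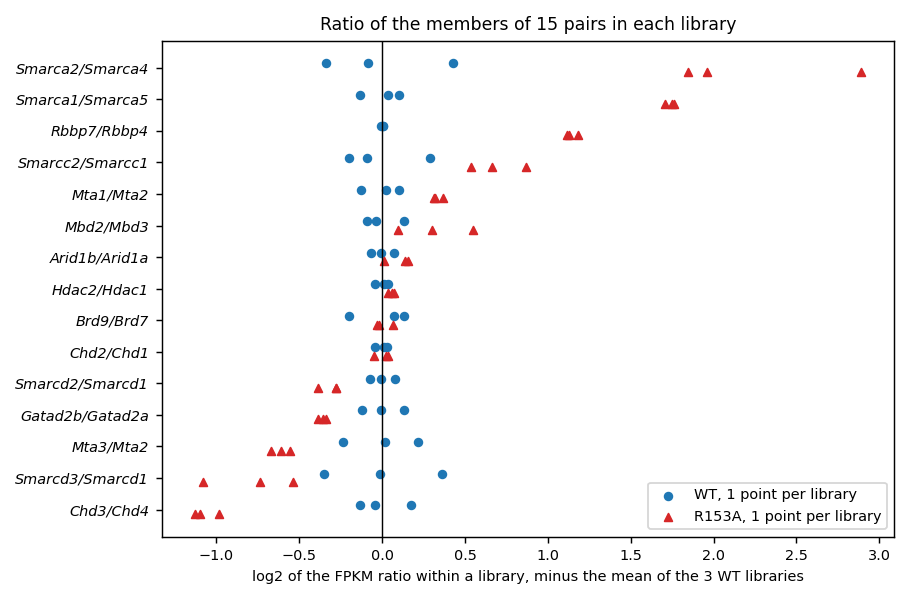
Log2 of the FPKM ratio of 15 pairs in each library, shifted so that the mean of the 3 WT libraries is 0 (WT circles, R153A triangles). The plot shows 10 pairs with separate groups, from Smarca2/Smarca4 at the top to Chd3/Chd4 at the bottom, and the 5 in the middle overlap.

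Further subunits and partners of the same complexes were read from 7 lists with 66 genes, of which 65 were in the table and 61 passed the filter. Srcap was not analysed here. Among the 61 there were 15 rises, 21 falls and 25 genes not called (37.5% of all genes tested rose and 22.3% fell), with a median log2 fold change of -0.023. The paired subunits that define ncBAF moved in opposite directions. Gltscr1 (now Bicra) rose from 1.88, 2.10 and 2.10 FPKM to 4.32, 4.24 and 4.295 FPKM, while its paralog Gltscr1l (now Bicral) fell from 10.8, 12.5 and 10.3 FPKM to 4.96, 4.43 and 5.52 FPKM. Their log2 fold changes were 0.81 (limma adjusted p = 2.7e-06) and -1.03 (limma adjusted p = 2.0e-06). Of the 6 further BAF subunits tested, 3 rose and 2 fell, among them Bcl7c (28.9 ± 2.26 to 38.8 ± 1.55 FPKM) and Bcl7b (8.58 ± 0.335 to 7.53 ± 0.121 FPKM), whose call was lost in 5 alternatives. Of 6 tissue-restricted BAF subunits 2 passed the filter and both fell, while without the filter 2 were called higher and 2 lower. Under the filter, Bcl11a (0.0634 ± 0.0364 to 0.457 ± 0.142 FPKM) and Bcl11b (0.170 ± 0.0038 to 0.383 ± 0.0115 FPKM) had R153A libraries that were all above the WT libraries. The falls were those of the neuronal BAF subunits Dpf1 (BAF45B), from 7.93 ± 0.742 to 4.17 ± 0.248 FPKM, and Ss18l1 (CREST), from 3.19 ± 0.343 to 1.72 ± 0.226 FPKM.

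Of 8 NuRD partners, 3 rose and 2 fell, where 37.5% of all genes tested rose and 22.3% fell. Zmynd8, a chromatin reader that recruits NuRD, rose from 10.6 ± 0.622 to 23.6 ± 0.916 FPKM, and Cdk2ap1, a small NuRD subunit, from 57.8 ± 2.20 to 82.3 ± 1.94 FPKM. Zfp296, a zinc-finger partner of NuRD in stem cells, fell from 22.4 ± 1.21 to 8.62 ± 0.160 FPKM and Sall1, which binds NuRD through its N terminus, from 27.8 ± 2.11 to 17.4 ± 1.0105 FPKM. Of 8 further CHD and SNF2-type ATPases 6 fell and 1 rose, against 22.3% and 37.5% of all genes. The falls were led by Chd1l, a remodeller of DNA repair (13.3 ± 0.516 to 9.75 ± 0.246 FPKM), and Smarcad1 (21.6 ± 1.43 to 16.4 ± 0.531 FPKM). The rise was that of Chd6 (8.21 ± 0.755 to 9.87 ± 0.443 FPKM), which was lost in 3 alternatives, among them quantile normalization.

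For the counts of the remaining lists, the shares of all genes tested were 37.5% higher and 22.3% lower. Of 8 further ISWI subunits 2 rose and 2 fell. The falls were those of Cecr2 (9.01 ± 0.687 to 6.31 ± 0.311 FPKM) and Baz2a, the NoRC subunit TIP5 (51.1 ± 3.75 to 38.4 ± 0.874 FPKM). The rises were those of Chrac1 (14.7 ± 1.64 to 19.9 ± 2.32 FPKM) and Rsf1 (5.93 ± 0.381 to 7.44 ± 0.375 FPKM). Of 13 INO80 subunits 3 rose and 5 fell. The AAA+ ATPases Ruvbl2 and Ruvbl1, shared by the INO80, SRCAP and TIP60 complexes, both fell. Ruvbl2 went from 161 ± 8.46 to 123 ± 2.04 FPKM, and Ruvbl1 from 84.5 ± 2.08 to 70.8 ± 1.83 FPKM. Ino80c rose from 7.14 ± 0.343 to 10.3 ± 0.463 FPKM, as did Yy1 (38.6 ± 2.15 to 47.2 ± 1.70 FPKM). Of 16 SRCAP and TIP60 subunits, 3 were called higher, 2 lower and 11 not at all. Under median-ratio scaling and under quantile normalization 3 were higher and 5 lower, where 3655 and 3893 of 11817 genes fell. The rises included Mrgbp (6.21 ± 0.889 to 8.69 ± 1.32 FPKM) and Yeats4 (30.8 ± 1.18 to 38.0 ± 1.40 FPKM). The falls were those of Dmap1 (37.0 ± 1.57 to 31.5 ± 2.34 FPKM) and Morf4l2 (269.9 ± 6.49 to 246 ± 5.84 FPKM), of which Morf4l2 was lost in 4 alternatives.

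**Figure D5:**
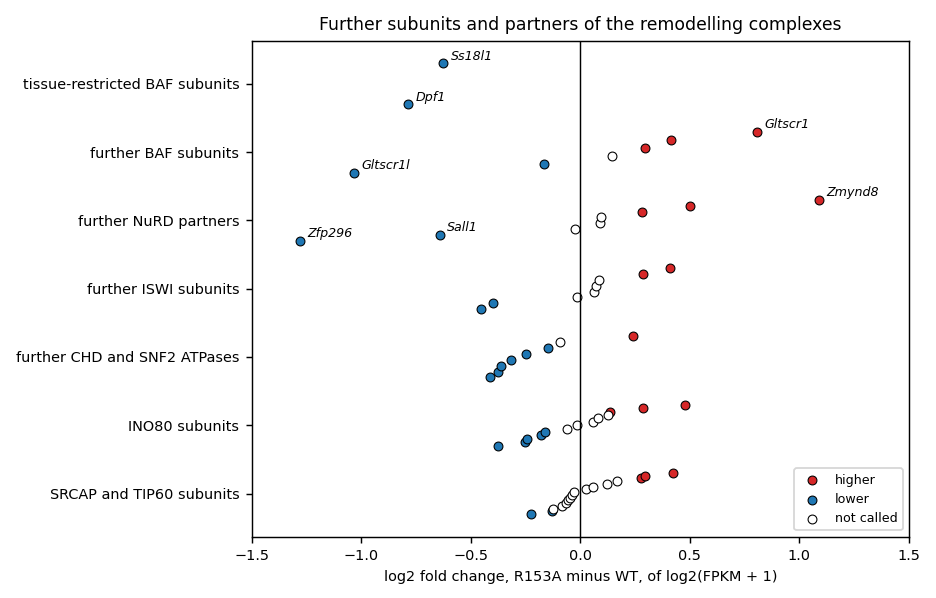
Log2 fold change (R153A minus WT) of 61 further subunits and partners by list, filled where limma called the gene. Zfp296, Gltscr1l and Dpf1 lie furthest to the left and Zmynd8 and Gltscr1 furthest to the right.

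The median member lay above the median gene tested in level and in transcript length, with exceptions such as Smarca1 in level and Mbd3 in length. In WT, 29 of the 42 had a mean of 10 FPKM or more, and the 40 tested had a median at percentile 79.1 of the genes tested. Their longest reference transcripts had a median of 4903 bases, against 3247 over the genes tested that had a length. With the genes tested split into 3 classes by length, 24 members were in the longest class, 11 in the middle and 5 in the shortest. Their median log2 fold changes were 0.105, 0.069 and 0.15 in that order, against 0.091, 0.067 and 0.054 for all genes of those classes. Spearman's rho between transcript length and log2 fold change was 0.20 over the 40 members and 0.047 over 11757 genes, given as a description, since the members share libraries. WT replicate 2 had the highest of the 3 WT values in 28 of the 40 members (70%) and in 52% of all genes tested. Without that library 21 members were called higher and 5 lower, and the members' median log2 fold change was 0.15. All genes tested shifted too, with 4504 of 11641 called higher, 2252 lower and a median of 0.096.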

How the data were processed

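The only file used is the FPKM table deposited by the authors, which holds 6 libraries. Build mm9 and the tools edgeR 3.26.8, HTSeq 0.11.2, SAMtools 1.9 and Bowtie2 2.3.4.3 appear in the submitters' processing notes, without their roles. The annotation, the use of strand, the treatment of reads shared with pseudogenes or overlapping genes, and the tool that gave FPKM are likewise not stated there. Depth is unknown. FPKM summed to between 360152 and 382086 per library.

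Values were used as deposited, as log2(FPKM + 1). Genes with FPKM of 1 or more in at least 3 libraries were tested two-sided with limma 3.58.1 (R 4.3.3) and its mean-variance trend, and Benjamini-Hochberg adjustment over 11817 genes. The fit was tested on simulated data. The members and lists, and the rule for genes given in full (the 6 largest rises and falls and the catalytic subunits, and the 2 largest rises and falls of each further list), were chosen with earlier results of these data known. Xist, Ddx3y, Eif2s3y, Dppa5a, Tdgf1, Foxa2, Sox7, Dab2, Bcl11a and Bcl11b were chosen after their values were seen. Pair ratios used FPKM without a pseudocount and an exact permutation test. Transcript length, GC content and chromosome came from GENCODE M21, matched by symbol or synonym for 99.5% of genes tested. Plots used Python 3.11.15 and matplotlib 3.10.9.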

Additional observations from a re-analysis of the deposited data

How the results depend on the processing

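The settings changed one at a time were the scaling (median-ratio, TPM or quantile), the pseudocount (0.1 or 0.5), the filter (none or 5 FPKM), limma's variance model (no trend, or robust), a block for the replicate number, each library left out and, chosen after seeing the data, a loess correction (span 0.5) for GC content and length. The members called higher numbered 14 to 21 against 18, and those called lower 5 to 7, except 10 under median-ratio scaling and 12 after the GC and length correction. The members' median log2 fold change of 0.096 was 0.016 under median-ratio scaling and -0.014 after the GC and length correction. Over all genes tested the median of 0.071 moved likewise, to -0.00096 and -0.015. The GC and length correction also removed each library's overall offset, so its values include a shift shared by genes in general. The members' median lay between 0.077 and 0.155 when 1 library was left out. Single genes changed sign only after the GC and length correction among those called in either fit: Smarca4 (-0.14), Smarcb1 (-0.20) and Mbd3 (-0.022). The cause was not tested. With the replicate block the counts stayed at 18 and 5. Same-numbered libraries did not deviate together (correlations of -0.049, -0.0095 and 0.060), so the numbers were not taken to pair them. Counts of the further subunits stayed within 1.5 times 15 and 21 in all 17 alternatives, and 10 to 12 of the 15 pair ratios had separate groups in the 8 alternatives run for them. Since depth is unknown, no counting interval could be given, and Smarca2, Smarcd3 and Smarca1, near or under 1 FPKM in WT, are the least certain.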
